A study of Homo sapiens with 10 samples.

Results

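The ZFP36 and BTG/TOB genes encode proteins that bring messenger RNAs to the deadenylase that starts their decay. The 8 genes ZFP36, ZFP36L1, ZFP36L2, BTG1, BTG2, BTG3, TOB1 and TOB2 were taken as the rows of the count table that carry these symbols, which are 8 of 28380 rows, and all 8 were among the 13378 genes with enough counts for a test. RNA came from RPE-1 cells, a telomerase-immortalized human retinal pigment epithelial line, exposed for 4 h either to 25 µM sulforaphane (SFN), an isothiocyanate from cruciferous vegetables, or to the vehicle DMSO, with 5 replicates in each group. No genetic change distinguished the groups, and both came from this single line. The study's methods give a number of cells per replicate and refer in general to independent replicates, without stating that the sequenced ones were separate cultures. Nothing in the labels says so either, so p-values measure only the spread between these samples, which may be technical.

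ZFP36 (also called tristetraprolin), ZFP36L1 and ZFP36L2 each have a pair of zinc fingers that bind AU-rich elements in the 3′ ends of short-lived mRNAs and recruit the CCR4-NOT complex, which removes the poly(A) tail. BTG and TOB proteins share an N-terminal domain that binds the CNOT7 and CNOT8 deadenylases of that complex, and TOB1 and TOB2 also bind the poly(A)-binding protein PABPC1. ZFP36, BTG2 and TOB1 are known as genes that respond within minutes to hours to growth factors or stress, and BTG2 and TOB1 are known for slowing cell division.

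The total count per library ranged from 15689294 to 20666692 in DMSO and from 12375860 to 17308706 in SFN. Levels are given as CPM, counts scaled to a common library size, after TMM scaling, and were not divided by transcript length unless this is stated. The study's methods name a kit that reads tags from transcript 3′ ends, whereas the labels name only standard Illumina library preparation. Which one made these libraries was not settled here, so a share of a family's summed CPM counts reads, not molecules. DMSO replicate 1 stood apart from the other libraries. Across genes, its Spearman correlation with the rest of its group averaged 0.935, whereas the average was at least 0.979 for each other library, and counts of called genes, and the values that turn on it, are given with and without it. Of the markers of pigment epithelium, RPE65 and TTR had 0 counts in every DMSO library and SERPINF1 at most 2, whereas MITF (50.8 CPM in DMSO and 23.4 in SFN), BEST1 (18.8 and 42.4 CPM) and OTX2 (14 and 9.01 CPM) were present. MITF and OTX2 were significantly lower in SFN, and BEST1 was not past the threshold (edgeR adjusted p = 0.16). The 10 pigment epithelium markers found summed to between 63.6 and 105 CPM in DMSO and between 56.6 and 137 CPM in SFN. Those of blood and endothelium summed to between 0 and 0.685 CPM in DMSO and between 0.282 and 1.73 CPM in SFN, and their part in the results was not tested. In these bulk samples fewer cells with an mRNA and less of that mRNA per cell cannot be told apart.

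The 3 ZFP36 genes themselves carry the element that their proteins bind. In the canonical transcripts of GENCODE 44 (GRCh38), the 3′ UTR of each held 3 copies of the heptamer UAUUUAU, of which 1 lay inside the longer nonamer UUAUUUAUU. These windows are shown because they are the only matches of the nonamer in the 8 genes, with the match in capitals, 5′ to 3′ on the transcript:

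ZFP36: uaugacgacuUUAUUUAUUcuaauaugau
ZFP36L1: aacuguuggaUUAUUUAUUuuagaaauuc
ZFP36L2: acuauuuaacUUAUUUAUUaucuugugaa

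The match in ZFP36 lies on the plus strand at chr19:39409206-39409214. In ZFP36L1 and ZFP36L2 it lies on the minus strand, at chr14:68788087-68788095 and chr2:43223458-43223466. Of the other genes, BTG3 held 2 heptamers, BTG1, BTG2 and TOB2 held 1 each and TOB1 held 0. Over the 11613 tested genes with an annotated 3′ UTR, 37.5% had at least 1 heptamer and 9.91% at least 1 nonamer. A match is a description of sequence and not a measured binding site.

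After 4 h of SFN, BTG2 and ZFP36L2 were among the most strongly decreased genes in the cells, TOB1 was moderately lower, and BTG1 and ZFP36 were moderately higher. The test was edgeR's quasi-likelihood test, its p-values were adjusted over the whole table by the Benjamini-Hochberg method, and SE stands for the standard error of a log2 fold change. At an adjusted p under 0.05, 5 of the 8 genes changed, beside 23.0% of all tested genes. Of these, 3 were lower, against 13.9% of all tested genes, and 2 were higher, against 9.07%. ZFP36L1, BTG3 and TOB2 were not past the threshold. Without DMSO replicate 1, 6 of the 8 changed, beside 46.1% of 13566 tested genes, with 3 higher (22.5% of all tested genes) and 3 lower (23.5%). In the 5 genes called with all libraries the groups did not overlap, as in 19.9% of all tested genes. The SFN libraries lay above all DMSO libraries in 2 of them (8.78% of all tested genes) and below in 3 (11.1%). Ranked by log2 fold change from the lowest, BTG2 was number 34 and ZFP36L2 number 44 of the 13378 genes.

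**Figure D1:**
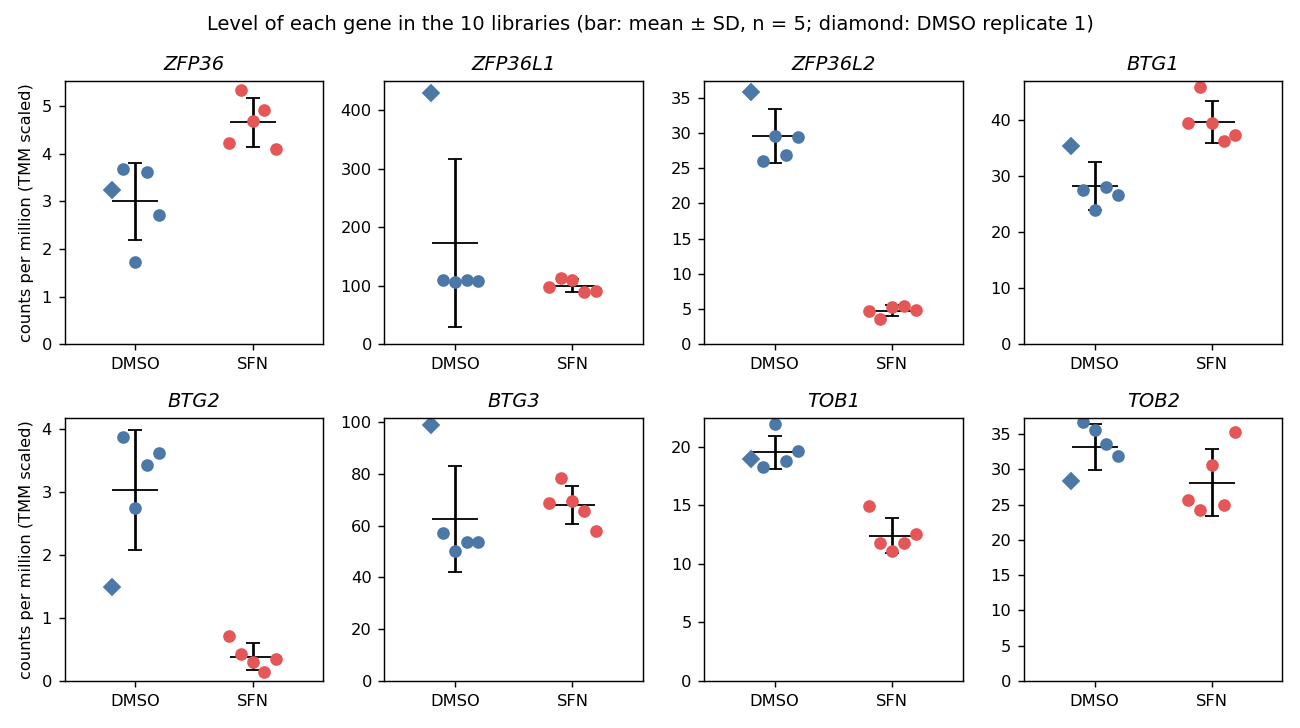
Level of each of the 8 genes in CPM (y axis, from 0) in the 5 DMSO and 5 SFN libraries (x axis), with a point per library and bars for the mean ± SD. For ZFP36L2 the SFN libraries lie between 3.54 and 5.4 CPM and the DMSO libraries between 26 and 35.7 CPM, and DMSO replicate 1 (diamond) is far above the rest for ZFP36L1.

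ZFP36L2 lies on chromosome 2 of GRCh38 from 43222402 to 43226606 on the minus strand. In DMSO replicates 1 to 5 its level was 35.7, 26, 29.5, 26.8 and 29.5 CPM, and in SFN replicates 1 to 5 it was 4.71, 3.54, 5.29, 5.4 and 4.87 CPM. The highest SFN library was therefore far below the lowest DMSO library. The mean fell from 29.5 ± 3.83 CPM (SD, n = 5) to 4.76 ± 0.741 CPM (SD, n = 5), a 6.17-fold decrease (log2 fold change -2.63 ± 0.15 SE, edgeR adjusted p = 4.6e-07). Its log2 fold change stayed between -2.70 and -2.45 over 21 alternative analyses and was past the threshold in 21. The counts behind these values were between 445 and 574 in DMSO and between 41 and 80 in SFN.

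ZFP36, on chromosome 19 from 39406847 to 39409412, had a low level and a small increase. It measured 3.24, 3.69, 1.73, 3.61 and 2.72 CPM in the DMSO libraries and 4.23, 5.35, 4.69, 4.93 and 4.10 CPM in the SFN libraries. DMSO replicate 3 was the lowest, and the groups did not overlap. The mean was 3.0 ± 0.805 CPM in DMSO and 4.66 ± 0.512 CPM in SFN (SD, n = 5 each), from between 31 and 81 counts in a library. The log2 fold change was 0.63 (SE 0.21), with an adjusted p of 0.049 by edgeR's quasi-likelihood test. This call was close to the threshold and was held in 7 of 21 alternatives, over all of which the adjusted p ranged from 0.0092 to 0.12. It was lost when any 1 library other than DMSO replicate 1 was left out, with log2 fold changes from 0.48, without DMSO replicate 3, to 0.72, without DMSO replicate 2, and it was 0.65 without DMSO replicate 1 (adjusted p = 0.021).

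ZFP36L1, on chromosome 14 from 68787660 to 68796253 on the minus strand, had the highest CPM of the 3, also per length. Its DMSO levels were 430.3, 109.9, 107, 109.3 and 107.4 CPM and its SFN levels were 98.4, 113, 110.0, 88.9 and 90.2 CPM. DMSO replicate 1, with 6909 counts, lay far above the 9 other libraries, which overlapped between the groups. With all libraries the log2 fold change was -0.79 (SE 0.38, edgeR adjusted p = 0.17). Without DMSO replicate 1 the ZFP36L1 value was -0.12 (SE 0.087, edgeR adjusted p = 0.27). With each library's slope on transcript length as a covariate, an analysis added with earlier results known, it was -0.86 with an adjusted p of 1.8e-05 by the same test. That slope was -0.271 in DMSO replicate 1 against 0.0872 to 0.148 in the other DMSO libraries. In SFN the slope ran from -0.183 to 0.109, mostly below those other DMSO libraries, so the covariate is partly tied to the treatment. How far this and DMSO replicate 1 set the value of -0.86 was not tested.

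Within the summed CPM of the 3 ZFP36 genes, ZFP36L2 made up 17.6 ± 5.69% in DMSO and 4.41 ± 0.947% in SFN (SD, n = 5 each). The share of ZFP36L1 was 80.6 ± 6.24% in DMSO and 91.3 ± 1.15% in SFN, and that of ZFP36 was 1.82 ± 0.849% and 4.27 ± 0.433%. Without DMSO replicate 1 the DMSO share of ZFP36L2 was 20.1 ± 1.37% (SD, n = 4). That of ZFP36L1 was then 77.8 ± 0.813% and that of ZFP36 2.11 ± 0.651%. Divided by the length of the canonical transcript, the DMSO means were 57.3 CPM per kb for ZFP36L1, 7.99 CPM per kb for ZFP36L2 and 1.72 CPM per kb for ZFP36, which is the same order. The ZFP36L1 mean includes the high value of DMSO replicate 1. In SFN the means were 33.2 CPM per kb for ZFP36L1, 1.29 for ZFP36L2 and 2.67 for ZFP36, so ZFP36 then lay above ZFP36L2. Without that division their SFN means were 4.66 CPM for ZFP36 and 4.76 CPM for ZFP36L2. The order of these genes in SFN therefore rests on the division by length, and whether the kit calls for it was not settled here.

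**Figure D2:**
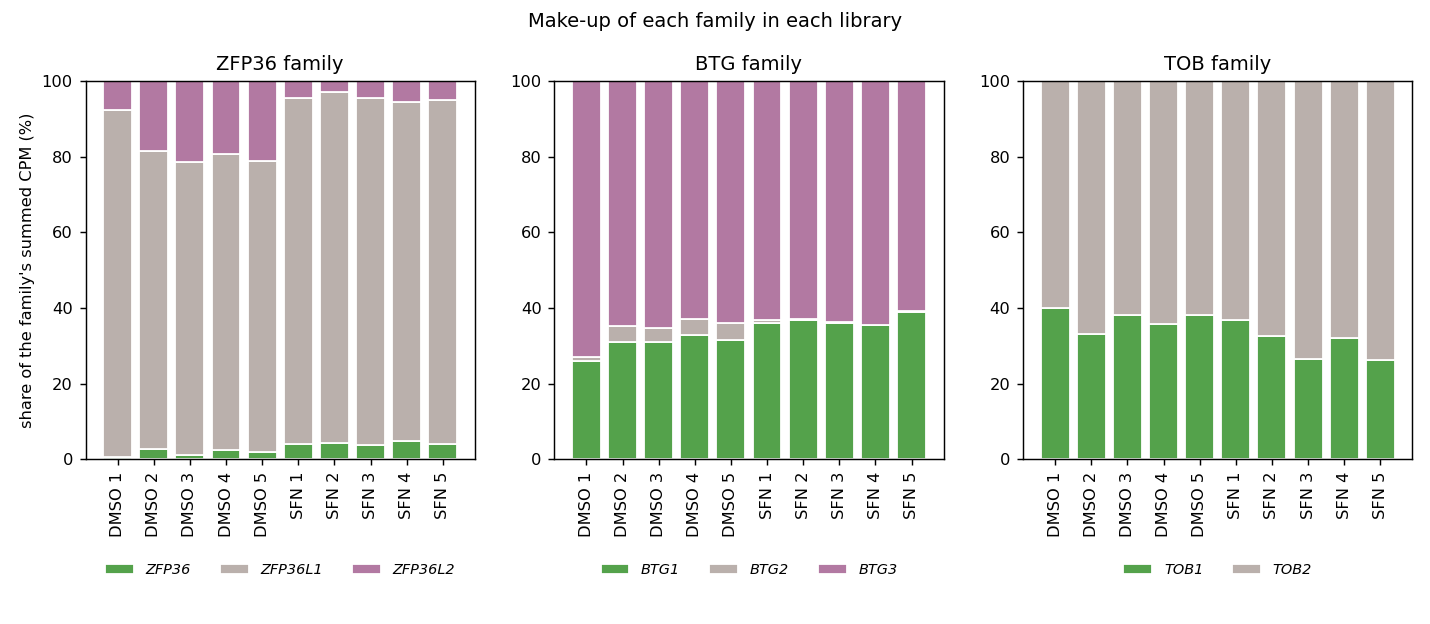
Share of each gene in the summed CPM of its family (y axis, percent) in each of the 10 libraries (x axis), as stacked bars. The ZFP36L2 part shrinks from a mean of 17.6% in DMSO to 4.41% in SFN. The BTG2 part, which has a mean of 3.48% in DMSO (4.07% without replicate 1), is barely visible in SFN.

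The paralogs of the ZFP36 family differed in their response. For each library the log2 difference between 2 genes was taken after adding 0.5 CPM, and SFN was compared with DMSO by a two-sided exact permutation test, with adjustment over the 7 pairs compared in the 3 families. The ZFP36 level relative to ZFP36L2 was higher in SFN by 3.11 on the log2 scale. That of ZFP36L1 relative to ZFP36L2 was higher by 2.0, and by 2.32 without DMSO replicate 1. The ZFP36 level relative to ZFP36L1 was higher by 1.11 with all libraries and by 0.74 without DMSO replicate 1. With all libraries each of these 3 differences had an adjusted p of 0.0093 by the exact permutation test, and the smallest raw p the design allows is 0.0079. In all 3 the SFN libraries lay above the DMSO libraries.

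BTG2, on chromosome 1 of GRCh38 from 203305491 to 203309602, had the largest decrease of the 8. Its counts in DMSO replicates 1 to 5 were 24, 85, 49, 57 and 61, and in SFN replicates 1 to 5 they were 12, 5, 4, 2 and 5. In CPM the DMSO libraries measured 1.49, 3.87, 2.74, 3.43 and 3.61 and the SFN libraries 0.715, 0.431, 0.298, 0.135 and 0.353. DMSO replicate 1 was the lowest of its group and still lay above every SFN library. The mean fell from 3.03 ± 0.956 CPM (SD, n = 5) to 0.387 ± 0.214 CPM (SD, n = 5), a 7.62-fold decrease (log2 fold change -2.93 ± 0.39 SE, edgeR adjusted p = 2.3e-04). The 28 SFN counts summed over libraries give a pooled 0.396 CPM with an exact 95% Poisson interval from 0.263 to 0.572 CPM, which covers counting error only. Over 21 alternatives the BTG2 log2 fold change ranged from -3.49 to -2.69, and it was past the threshold in 21. BTG2 and ZFP36L2 were significantly lower with a fall of more than 1 on the log2 scale, as were 5.76% of all tested genes. By the same rule 0 of the 8 were significantly higher with a rise of more than 1, as were 2.94% of all tested genes.

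BTG1, the closest relative of BTG2, lies on chromosome 12 from 92140278 to 92145846 on the minus strand and went the opposite way. The BTG1 level was 35.3, 27.4, 23.9, 28.0 and 26.6 CPM in the DMSO libraries and 39.4, 45.8, 39.5, 36.3 and 37.3 CPM in the SFN libraries. DMSO replicate 1 was the highest of its group and came close to the lowest SFN library without reaching it. The mean rose from 28.2 ± 4.26 to 39.7 ± 3.70 CPM (SD, n = 5 each), a 1.40-fold increase (log2 fold change 0.49 ± 0.12 SE, edgeR adjusted p = 0.014). The call held in 20 of 21 alternatives and was lost when a fold change limit of 1.2 was itself tested (adjusted p = 0.083 by edgeR's glmTreat).

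The gene starts of BTG1 and BTG2 are shown because these relatives moved in opposite directions. RefSeq promoters were given for BTG1, BTG2, BTG3, TOB1, TOB2, ZFP36 and ZFP36L1. Each runs from 250 bases before to 50 bases after the gene start, 5′ to 3′ on the gene's strand, in GRCh38.p14, at chr12:92145797-92146096 on the minus strand for BTG1 and at chr1:203305269-203305568 on the plus strand for BTG2. Capitals mark the TATA box (TATAAA), the GC box (GGGCGG), the core of the cAMP response element (TGACG) and the letters CCAAT, on either strand and with no overlap among them here:

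BTG1: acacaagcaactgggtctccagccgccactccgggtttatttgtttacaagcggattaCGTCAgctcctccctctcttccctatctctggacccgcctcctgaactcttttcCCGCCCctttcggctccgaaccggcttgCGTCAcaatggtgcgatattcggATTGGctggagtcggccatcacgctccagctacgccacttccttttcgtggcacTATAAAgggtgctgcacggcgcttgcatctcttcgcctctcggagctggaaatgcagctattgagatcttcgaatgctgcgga
BTG2: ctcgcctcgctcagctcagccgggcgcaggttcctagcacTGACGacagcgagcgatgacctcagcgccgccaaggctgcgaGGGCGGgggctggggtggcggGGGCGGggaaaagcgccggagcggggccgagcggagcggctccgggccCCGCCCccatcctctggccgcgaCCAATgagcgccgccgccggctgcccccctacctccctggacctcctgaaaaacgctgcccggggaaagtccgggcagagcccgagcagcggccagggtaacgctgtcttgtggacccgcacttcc

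The BTG1 sequence held 1 TATAAA, at base -33 from the gene start, and the BTG2 sequence held 0, while 11.5% of 35116 RefSeq promoters of this length held it. GGGCGG occurred 3 times in BTG2 and 1 time in BTG1, and 45% of promoters held it. CCAAT occurred 1 time in each, and 34.6% of promoters held it. TGACG occurred 2 times in BTG1 and 1 time in BTG2, and 24.6% of promoters held it. The CArG box, the site of serum response factor, was not matched in the windows of the 7 genes given, and 1.29% of promoters held it. No match says only that these letters are not in this window.

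BTG3, on chromosome 21 from 17593653 to 17612945 on the minus strand, depended on DMSO replicate 1. The BTG3 level was 99.0, 57.3, 50.1, 53.6 and 53.7 CPM in the DMSO libraries and 69.0, 78.4, 69.5, 65.8 and 58.1 CPM in the SFN libraries. DMSO replicate 1 was the highest of all 10, and the 4 other DMSO libraries lay below every SFN library. With all libraries the log2 fold change was 0.12 (SE 0.18, edgeR adjusted p = 0.70). Without DMSO replicate 1 it was 0.34 (SE 0.092, edgeR adjusted p = 0.0083), where 22.5% of all tested genes were significantly higher. BTG3-AS1, an RNA on the opposite strand that overlaps the start of BTG3, rose from 0.421 ± 0.10 to 1.34 ± 0.449 CPM (SD, n = 5 each), with 4 to 10 counts in DMSO libraries and 12 to 29 in SFN libraries (log2 fold change 1.64 ± 0.31 SE, edgeR adjusted p = 0.0028). Whether the counting used strand is not given in the sources used here, so reads of a gene and its antisense partner cannot be told apart. LINC01619, which overlaps BTG1 on the same strand, had no more than 12 counts in any library, and TOB1-AS1, opposite TOB1, no more than 5. LOC101928617 (BTG1-DT in GENCODE), which overlaps the start of BTG1 on the opposite strand, had 19 to 48 counts in DMSO libraries and 24 to 64 in SFN libraries. Its mean was 1.79 ± 0.467 CPM in DMSO and 3.07 ± 1.36 CPM in SFN (SD, n = 5 each), the groups overlapped, and its log2 fold change was 0.76 (SE 0.33, edgeR adjusted p = 0.12). An unnamed RNA that overlaps the 3′ end of ZFP36L2 on the opposite strand was not analysed here.

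The BTG genes also differed from each other in response. The BTG1 level relative to BTG2 was higher in SFN by 2.46 on the log2(CPM + 0.5) scale, and that of BTG2 relative to BTG3 was lower (a difference of -2.13). Because BTG2 is low, the first value was 3.23 with 0.1 CPM added and 1.52 with 2 CPM added, and the second was -2.89 and -1.21. On the log2(CPM + 0.5) scale, leaving out DMSO replicate 1 gave 2.74 for the first and -2.50 for the second. The BTG1 level relative to BTG3 was higher in SFN by 0.33, and by 0.23 without DMSO replicate 1. With all libraries the 3 differences each had an adjusted p of 0.0093 by the exact permutation test over the 7 pairs, and in all 3 the groups did not overlap.

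TOB1, on chromosome 17 from 50862223 to 50867978 on the minus strand, was lower in SFN. It measured 18.9, 18.2, 21.9, 18.8 and 19.7 CPM in the DMSO libraries and 14.9, 11.7, 11.1, 11.7 and 12.5 CPM in the SFN libraries. SFN replicate 1 was the highest of its group and lay below all DMSO libraries. The mean fell from 19.5 ± 1.44 to 12.4 ± 1.49 CPM (SD, n = 5 each), a 1.57-fold decrease (log2 fold change -0.65 ± 0.11 SE, edgeR adjusted p = 0.0015). The TOB1 log2 fold change ranged from -0.74 to -0.55 over 21 alternatives and was past the threshold in 21.

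TOB2, on chromosome 22 from 41433494 to 41446801 on the minus strand, ranged from 28.4 to 36.6 CPM in DMSO and from 24.2 to 35.3 CPM in SFN, so the groups overlapped. Its log2 fold change was -0.24 (SE 0.13, edgeR adjusted p = 0.23), and -0.30 (adjusted p = 0.052) without DMSO replicate 1. TOB2 was past the threshold in 1 of 21 alternatives, limma-voom with sample quality weights (log2 fold change -0.34, adjusted p = 0.0022). The TOB1 level relative to TOB2 was lower in SFN, with a difference of -0.39 on the log2 scale (adjusted p = 0.032 by the exact permutation test over the 7 pairs). This pair lost the call when any of 6 libraries, DMSO replicate 1, 3 or 5 or SFN replicate 3, 4 or 5, was left out (adjusted p = 0.063 each).

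**Figure D3:**
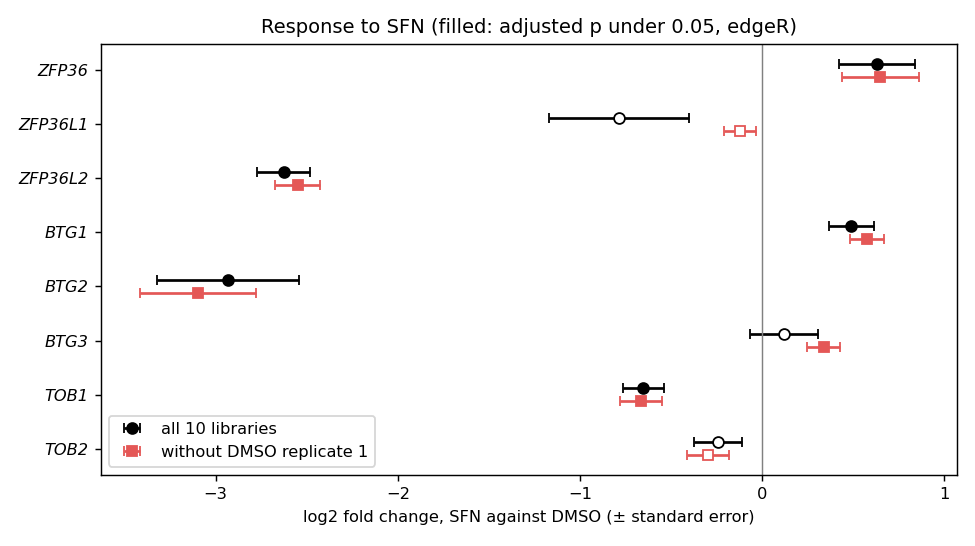
Log2 fold change of SFN against DMSO (x axis) with its standard error for each of the 8 genes (y axis), for all 10 libraries (circles) and without DMSO replicate 1 (squares), filled where the adjusted p was under 0.05. ZFP36L1 moves from -0.79 to -0.12 and BTG3 from 0.12 to 0.34 without that library, while ZFP36L2 stays at -2.63 and -2.55.

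Most genes of the decay machinery that these proteins recruit did not pass the test. Of 11 CCR4-NOT subunits tested, 1 was significantly higher and 0 lower by edgeR (9.07% and 13.9% of all tested genes). At an unadjusted p under 0.05 these counts were 2 and 0, and the share of all genes at that level is not given here. By DESeq2 they were 1 and 0, where 1840 of 28380 genes were higher and 2074 lower. By edgeR they were 2 and 1 without DMSO replicate 1, where 22.5% of all tested genes were higher and 23.5% lower. The median log2 fold change was 0.12, beside -0.028 for all tested genes. The increased subunit was CNOT8, a deadenylase that BTG and TOB proteins bind, which rose from 51.3 ± 3.84 to 68.0 ± 3.29 CPM (SD, n = 5 each, log2 fold change 0.41 ± 0.093 SE, edgeR adjusted p = 0.0083). CNOT7, its paralog with the same role, had a log2 fold change of 0.18 (SE 0.12, edgeR adjusted p = 0.34).

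Of 10 genes of the PAN2-PAN3 deadenylase and of poly(A) binding, 1 was significantly higher and 0 lower by edgeR, beside 9.07% and 13.9% of all tested genes. The counts were the same by DESeq2 and at an unadjusted p under 0.05, to which these shares do not apply. They were 2 and 0, beside 22.5% and 23.5%, without DMSO replicate 1. The list's median was 0.087 on the log2 scale. PAIP2, which binds and restrains the poly(A)-binding protein, rose from 93.7 ± 22.9 to 155 ± 10.2 CPM (SD, n = 5 each, log2 fold change 0.72 ± 0.15 SE, edgeR adjusted p = 0.0054). Among 18 genes of decapping and 5′ decay, 2 were higher and 1 lower, beside 9.07% and 13.9% of all tested genes, with a median of 0.071. By DESeq2 these counts were 2 and 0. The lower call was also lost without a filter, with a replicate block and under glmTreat. It was lost too in 7 of the analyses that left out a library (each DMSO library but replicate 1, and SFN replicates 1 to 3). The higher count fell to 1 with the replicate block and in those same 7 analyses, and to 0 under glmTreat. The counts rose to 5 and 4, beside 22.5% and 23.5%, without DMSO replicate 1. DCP1A, a cofactor of the decapping enzyme, rose by 0.69 on the log2 scale (SE 0.18, edgeR adjusted p = 0.016). LSM1, a subunit of the ring that promotes decapping, rose by 0.51 (SE 0.15, edgeR adjusted p = 0.028). For both genes the groups overlapped. Among 16 genes of the RNA exosome and SKI complex, which degrade RNA from the 3′ end, 0 were higher by edgeR or DESeq2 (0 at an unadjusted p under 0.05) and 1 was lower, EXOSC2, a subunit of the exosome's cap, which fell from 69.1 ± 6.97 to 45.9 ± 2.26 CPM (log2 fold change -0.59 ± 0.10 SE, edgeR adjusted p = 0.0012). All tested genes gave 9.07% and 13.9% by edgeR with adjusted p. This list had 2 higher and 3 lower without DMSO replicate 1, beside 22.5% and 23.5%. With sample quality weights it had 5 and 5, where 3874 of all 13378 tested genes were higher and 4041 lower.

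Of 20 other proteins that bind specific mRNA sequences or act with microRNAs, 2 were significantly higher and 3 lower, beside 9.07% and 13.9% of all tested genes. The counts were 3 and 6, beside 22.5% and 23.5%, without DMSO replicate 1. CPEB3, which binds mRNAs at the cytoplasmic polyadenylation element, rose from 2.29 ± 0.831 to 9.30 ± 2.52 CPM (SD, n = 5 each, log2 fold change 2.01 ± 0.29 SE, edgeR adjusted p = 4.2e-04). TNRC6A, which links microRNA complexes to CCR4-NOT, fell from 113 ± 4.93 to 59.0 ± 15.1 CPM (log2 fold change -0.94 ± 0.15 SE, edgeR adjusted p = 8.5e-04). Of 15 kinases, phosphatase subunits and 14-3-3 proteins that act on ZFP36 proteins, 3 were higher and 0 lower by edgeR (4 and 1 at an unadjusted p under 0.05, 4 and 0 by DESeq2), beside 9.07% and 13.9% of all tested genes. These became 7 and 1, beside 22.5% and 23.5%, without DMSO replicate 1. PPP2CB, a catalytic subunit of the phosphatase PP2A, rose by 0.76 on the log2 scale (SE 0.15). MAPKAPK2, the kinase that phosphorylates and restrains ZFP36, rose from 93.1 ± 4.17 to 134 ± 3.52 CPM (SD, n = 5 each, log2 fold change 0.53 ± 0.083 SE, edgeR adjusted p = 7.5e-04).

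**Figure D4:**
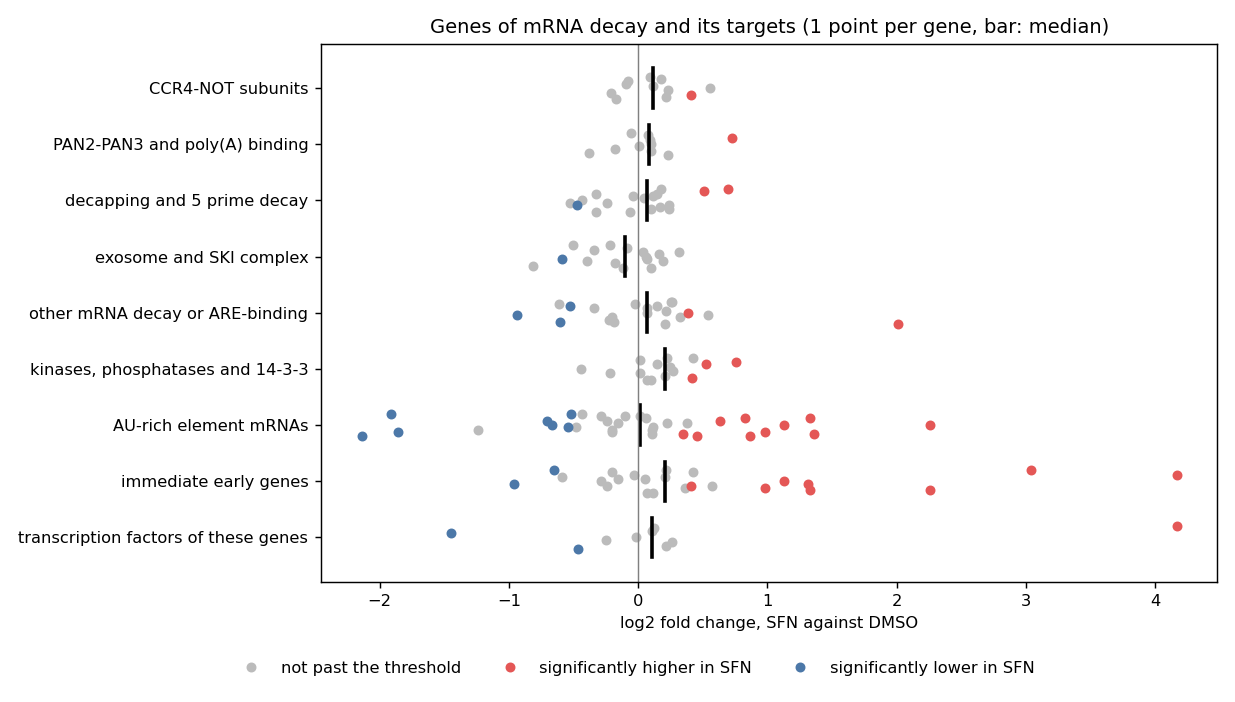
Log2 fold change of SFN against DMSO (x axis) for each tested gene of 9 lists (y axis), coloured by whether it was significantly higher, lower or neither by edgeR, with a bar at each list's median. Medians lie between -0.10 for the exosome and SKI complex and 0.21 for immediate early genes and for the kinases, phosphatases and 14-3-3 proteins.

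A list of mRNAs known for AU-rich elements or for control by ZFP36 proteins moved in both directions. Of 33 tested, 10 (30.3%) were significantly higher and 7 (21.2%) lower by edgeR, where all tested genes gave 9.07% and 13.9%. Without DMSO replicate 1, 13 were higher and 11 lower, beside 22.5% and 23.5%. The median log2 fold change with all libraries was 0.016 beside -0.028 for all tested genes. FOS, MCL1, MYC and IER2, among the higher genes, also belong to the immediate early list described below. PLK2, a polo-like kinase, fell from 407 ± 58.5 to 92.5 ± 6.84 CPM (SD, n = 5 each, log2 fold change -2.14 ± 0.13 SE, edgeR adjusted p = 6.9e-07). MCL1, a survival factor of the BCL2 family, rose from 187 ± 30.7 to 470.3 ± 35.9 CPM (log2 fold change 1.33 ± 0.13 SE, edgeR adjusted p = 3.3e-05).

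Tested genes were also grouped by the matches in their annotated 3′ UTRs. With 0 heptamers (7263 genes) 9.11% were significantly higher and 14.1% lower. With 2 or more heptamers (1892 genes) 8.67% were higher and 16.3% lower. With 2 or more nonamers (276 genes) 9.06% were higher and 17.0% lower. The median log2 fold change of these 3 groups was -0.011, -0.052 and -0.041. The median 3′ UTR length rose with the matches, from 885 bases in the first group to 3638 and 4176 bases, and the part of UTR length in these shares was not tested. Without DMSO replicate 1 the shares were 25.3% higher and 22.9% lower with 0 heptamers, and 17.3% and 29.2% with 2 or more.

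For each of the 5 called genes, the genes with the most similar course over the 10 libraries were found among 10039 genes with a mean of at least 5 CPM. The measure was the root mean square difference of log2 CPM after each gene's mean was removed. Nearest to ZFP36L2 were TFAP4 (0.187) and PATZ1 (0.198), both transcription factors, and nearest to BTG2 were RGS4 (0.249), a regulator of G protein signaling, and TRERF1 (0.253). The added 0.5 CPM is close to the BTG2 level in SFN and shrinks its fall on this scale. RGS4 and TRERF1 had smaller log2 fold changes, -1.87 and -1.78, against -2.93 for BTG2. TFAP4 fell from 12.8 ± 1.30 to 1.49 ± 0.370 CPM (SD, n = 5 each), a log2 fold change of -3.09 (SE 0.18). Nearest to TOB1 were HEATR3 (0.0822) and ALKBH8 (0.114), nearest to BTG1 were SBDS (0.0558) and MFF (0.0568), and nearest to ZFP36 were PRMT1 (0.131) and GABARAP (0.135). The level differences between the groups dominate this measure, and it says nothing of shared function.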

How the data were processed

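RNA of 5 DMSO and 5 SFN replicates of RPE-1 cells was sequenced by the authors, per the study's methods as Lexogen QuantSeq 3′ tags aligned with the Bluebee pipeline, and per the labels with standard Illumina libraries. The submitters' processing notes name FastQC, STAR, featureCounts and edgeR and the build GRCh38. The deposited values are raw counts for each Ensembl gene and replicate, not normalized by the authors. Strand use, molecular identifiers and the Ensembl release are not given in the sources used here. The authors' own test was limma on quantile normalized values, with repeated measures that their text does not define. In its place edgeR's quasi-likelihood test, a count model, was used without a block.

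The 28380 genes were filtered with filterByExpr, scaled by TMM and tested with glmQLFit and glmQLFTest (edgeR 4.0.16, limma 3.58.1, DESeq2 1.42.0, R 4.3.3), with Benjamini-Hochberg adjustment over 13378 genes and a threshold of 0.05. Standard errors were derived from the fold change and the F statistic. Within-family differences used a two-sided exact permutation test over all 252 arrangements of the group labels (SciPy 1.17.1), with 0.5 CPM added. GENCODE 44 held 28145 of the identifiers and all 8 genes. The genes and lists were chosen with earlier results of these data known. From each list the text names up to 2 called genes with the largest change and a mean of at least 5 CPM; CNOT7 was added for its role. A further list of target genes is not reported here. Libraries of a group differed by at least 3.50 times the sampling noise (chi-square per degree of freedom). Same-numbered libraries did not deviate together, so no pairing was used. In simulated counts 200 genes were changed, and 13238 genes then passed the filter. Of the changed genes that passed, edgeR recovered 77.7%, and 5.66% of its calls were false. The simulated share of changed genes was far below the 23.0% called in the data, so these rates may not carry over.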

Additional observations from a re-analysis of the deposited data

Results flagged for a closer look

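Over the 8 genes, the 7 within-family differences and 4 library measures, 38 groups of 5 libraries were examined for a library whose gap to the nearest other, divided by the group's range, was above the 95% limit of Dixon's test. There were 10 such groups, where about 1.9 are expected by chance, and 9 of them had DMSO replicate 1 apart. The gap in DMSO replicate 1 was 0.991 of the range for ZFP36L1, where that library was highest, and 0.853 for BTG3, where it was highest too. It was 0.873 for the log2 difference of ZFP36L1 and ZFP36L2, 0.842 for BTG1 and BTG2, 0.762 for BTG1 and BTG3 and 0.873 for BTG2 and BTG3. Among the library measures it was 0.907 for the TMM factor, 0.855 for the slope of log2 CPM on transcript length and 0.933 for the mean Spearman correlation with its own group. SFN replicate 2 stood apart in the log2 difference of ZFP36 and ZFP36L2 (0.862), since it had the highest ZFP36 and the lowest ZFP36L2 level of the SFN libraries. What sets these libraries apart was not tested.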

How the results depend on the processing

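The decreases of ZFP36L2, BTG2 and TOB1 kept their direction and stayed past the threshold in all 21 alternatives run for each, so the number of significantly lower genes was 3 or, with quality weights or the length covariate, 4. Of all 13378 tested genes, 4041 were lower with quality weights and 3431 with the length covariate, against 1862 in the main analysis. The number of significantly higher genes, 2 with all libraries, was 1 with upper quartile scaling, with library size only, without a low-count filter and with a replicate block, 0 when a fold change limit of 1.2 was tested with glmTreat (2 at an unadjusted p under 0.05 of the test without that limit, and 2 by DESeq2), and between 1 and 3 when a library was left out. ZFP36 accounts for each of the losses, and BTG1 was also lost under glmTreat. BTG3 was -0.014 with the transcript length slope as a covariate, a change of sign, and was past the threshold without DMSO replicate 1, without both libraries numbered 1 (0.33) and with sample quality weights (0.32). The covariate and the removal of both libraries were chosen after earlier results were known. The cause of these changes was not tested.

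Correlations of same-numbered libraries ranged from -0.27 to 0.48 and only number 5 matched best with its own number, so the numbers are not taken as pairs. With the replicate block, as sign flips of same-number differences, the within-family values were 1.11, 3.11, 2.0, 2.46, 0.33, -2.13 and -0.39 in the order ZFP36 against ZFP36L1 and ZFP36L2, ZFP36L1 against ZFP36L2, BTG1 against BTG2 and BTG3, BTG2 against BTG3 and TOB1 against TOB2, and the adjusted p was 0.062 for each, the smallest that 5 pairs allow. Leaving out a library gave TOB1 against TOB2 values from -0.49 to -0.31.

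Over all tested genes, 3076 were called, 1934 with glmTreat, 7915 with quality weights, 6723 with the covariate, 6251 without DMSO replicate 1 and 5488 without both libraries numbered 1. The share of calls that were higher in SFN was 39.5%, and 27.5% with library size only, which moved the median log2 fold change from -0.028 to -0.11. Of 22 counts over the pathway lists, 12 moved by over 1.5 times, or to or from 0, without DMSO replicate 1. With the length covariate 17 moved, and with quality weights 14. The 22 include the list not reported here and a list with 0 tested genes. With 2 to 12 counts per SFN library, counting error limits the fold change of BTG2.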

Other observations

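ZFP36, BTG2 and TOB1 are often grouped with immediate early genes. Of 24 tested genes of an immediate early list, 8 were significantly higher and 2 lower by edgeR, where all tested genes gave 9.07% and 13.9%, and 12 and 3 were without DMSO replicate 1, where all tested genes gave 22.5% and 23.5%. The list's median log2 fold change was 0.21. FOS, MCL1, MYC and IER2 are among the higher genes of this list and of the AU-rich element list. The counts of these lists are therefore not separate results. EGR1, a zinc finger transcription factor, had the largest change, from 2.63 ± 0.417 to 47.4 ± 6.65 CPM (SD, n = 5 each).

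Among 9 transcription factors known to act on the 8 genes, 1 was higher and 2 were lower, beside 9.07% and 13.9% of all tested genes. These were 1 and 3, beside 22.5% and 23.5%, without DMSO replicate 1. The higher gene with all libraries was EGR1, which is also in the immediate early list, as is the gene of serum response factor. The counts of these lists therefore overlap. FOXO3, one of the factors known to induce BTG1, fell from 65.5 ± 11.9 to 47.4 ± 6.34 CPM (log2 fold change -0.46 ± 0.14 SE, edgeR adjusted p = 0.033), while BTG1 was higher. FOXO1, named here after its values were seen, fell by 1.45 on the log2 scale, from 1.36 to 0.504 CPM. What these differences mean for the 8 genes was not tested.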
